A study of Mus musculus with 2 samples.

Results

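The MYC family and its partners were followed through single-nucleus RNA-seq of mouse CIC::DUX4 sarcomas. The set holds the 8 genes Myc, Mycn, Mycl, Max, Mxd1, Mxd4, Mxi1 and Mnt, chosen by symbol out of 19059 genes in the deposited count matrices. All 8 were found, each as a single row.

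Tumors came from dFLEx CDS mice, in which a CAG promoter drives the human CIC::DUX4 fusion once both Cre and FLP recombinase have acted, and in which plasmids encoding these recombinases were electroporated into hind limb muscle to start a tumor. The label of the untreated group gives the genotype dFLEx CDS +/- and no treatment, and 4 tumors were profiled. The second group's label gives dFLEx CDS tumors and daily Minnelide at 0.42 mg/kg over 21 days, without repeating the genotype, and again 4 tumors were profiled. Minnelide dissolves in water and releases triptolide, an inhibitor of the XPB subunit of TFIIH and thereby of transcription by RNA polymerase II. The age of the animals is not in the labels, and how single tumors responded to the drug was not analysed here. Neither group holds muscle without a tumor, so both share the fusion, the recombinase plasmids and the electroporation.

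MYC, MYCN and MYCL are basic helix-loop-helix leucine zipper transcription factors that bind DNA as dimers with MAX, most strongly at the E-box CACGTG, and activate genes of ribosome biogenesis, nucleotide synthesis and cell growth. MXD1, MXD4, MXI1 and MNT compete for MAX, bind the same E-boxes and recruit SIN3 and histone deacetylases to repress transcription. Myc mRNA is short-lived, so that its level follows transcription closely. The comparison of the groups therefore asks whether the relative levels of the activating and the repressing arm of this network differed between untreated and Minnelide-treated tumors, and in which nuclei. Every level below is relative to the other transcripts of the same nuclei. A fall or rise shared by all transcripts would not show, and absolute transcript levels were not measured.

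The genes lie on 7 chromosomes of the GRCm39 build (mm39): Myc at chr15:61857227-61862223, Mycn at chr12:12986076-12992915, Mycl at chr4:122889408-122896282, Max at chr12:76984043-77009009, Mxd1 at chr6:86624024-86646218, Mxd4 at chr5:34331227-34345240, Mxi1 at chr19:53298852-53364241 and Mnt at chr11:74721338-74736836. No other protein-coding gene overlaps any of them in the GENCODE M39 annotation. A gene on the opposite strand overlaps Myc, Mycn, Mycl, Mxd4, Mxi1 and Mnt, and the sources used here do not state whether UMIs were assigned by strand.

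Since dimers of the network meet at the CACGTG E-box, the stretch from 250 bases before to 50 bases after the start of each gene's canonical transcript was searched for it. It was present in the promoters of Max and Mxd4 and in none of the other 6 members, against 1701 of 21757 promoters of the same length (7.82%). Because CACGTG reads the same on both strands, 1 search covers both. The sites are shown with 10 bases on either side and the E-box in capitals, read 5′ to 3′ on the minus strand that both genes use. The E-box begins at position -25 from that start in Max (chr12:77009010-77009035), whose canonical transcript starts inside the gene limits given above, and at -33 in Mxd4 (chr5:34345258-34345283).
Max: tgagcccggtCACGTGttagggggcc
Mxd4: gctgggccacCACGTGctgttgctaa
The octamers that CIC binds (TGAATGAA, TGAATGGA, TCAATGAA or TCAATGGA, on either strand) were in 793 promoters (3.64%) and in no member's promoter. A match is a description of these letters, and distal sites were not searched.

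The 8 matrices held 72338 nuclei, with 18487409 to 73211599 UMIs per tumor and a median of 883 to 4031 UMIs per nucleus. After removal of compromised nuclei and doublets 59907 nuclei were retained, and 23 clusters, formed without the members, were named by fixed marker lists as tumor-like, fibroblast-like, endothelial-like, macrophage-like, myocyte-like, pericyte-like or osteoclast-like. The tumor-like class held 29041 nuclei, in which all 8 CIC::DUX4 marker genes were detected in each tumor and made up 1.33% to 2.05% of UMIs. In the other named classes they made up 0.21% to 1.56%, so the ranges overlapped. The same markers served to name the clusters. Of its 8 clusters, 7 drew at least 96.3% of their nuclei from a single tumor, so tumor and cluster cannot be told apart within this class. Clusters with markers of several classes stayed unnamed and held 29.8% of untreated and 4.91% of Minnelide nuclei, chiefly shallow nuclei of untreated 1, untreated 4 and Minnelide 3. The largest of them held 6406 nuclei, 96.8% from untreated 4. Its leading list was that of tumor markers, with 8 of 8 raised, but fibroblast markers led its top genes. Untreated 4 thus kept 2207 tumor-like nuclei of its 10368 retained nuclei. A barcode was shared by 4 of the 28 pairs of tumors (49 to 132 barcodes), each time 1 untreated and 1 Minnelide tumor. The sources used here do not state which tumors shared a capture run. If run followed group, it cannot be told apart from treatment in any comparison of the groups.

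In tumor-like nuclei Myc was measured at 17.2 ± 7.22 CPM (SD, n = 4) in untreated and 10.7 ± 2.17 CPM (n = 4) in Minnelide tumors, where CPM is the gene's UMIs per 1e6 UMIs, both summed over the nuclei of that class in a tumor. The values were 26.4, 19.4, 11.8 and 11.1 CPM in untreated 1 to 4, and 10.6, 7.74, 12.9 and 11.4 CPM in Minnelide 1 to 4. Untreated 1 and untreated 2 were above every Minnelide tumor, while untreated 3 and untreated 4 lay among them, so the groups overlapped. The log2 fold change was -0.54 ± 0.28 (SE), with an adjusted p of 0.592 in edgeR's quasi-likelihood test. The counts behind these values ran from 37 Myc UMIs in Minnelide 2 to 910 in untreated 1, so that the exact 95% Poisson interval, which covers counting error alone, was 24.7 to 28.2 CPM in untreated 1 and 5.45 to 10.7 CPM in Minnelide 2. Without untreated 1 the log2 fold change was -0.34, and without untreated 4 it was -0.67 with an unadjusted p of 0.0441 and an adjusted p of 0.571 (edgeR). In the fit without untreated 4, 957 of 13150 genes were lower after Minnelide at an unadjusted p under 0.05.

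**Figure D1:**
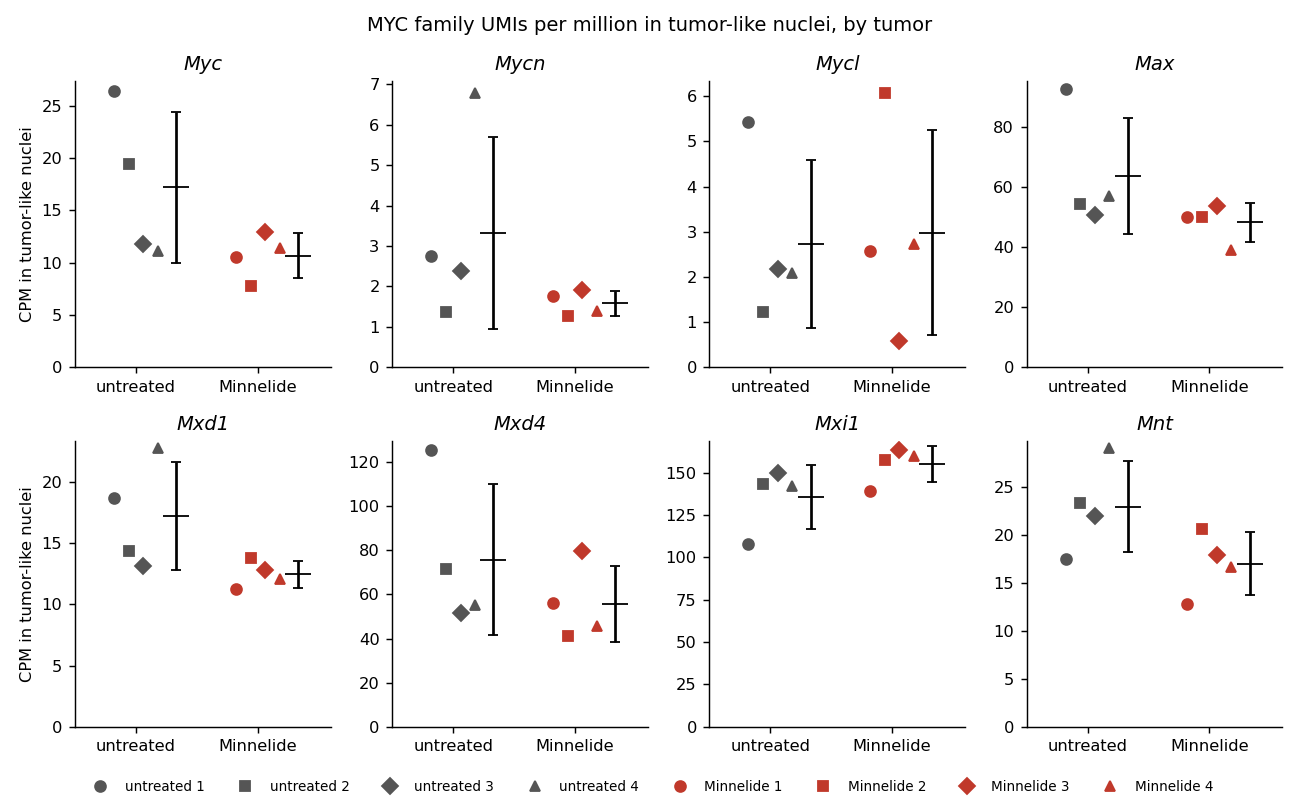
UMIs of each member per 1e6 UMIs (CPM) in tumor-like nuclei, 1 symbol per tumor, with mean and SD beside each group of 4 (untreated gray, Minnelide red; the scale of each panel begins at 0). Untreated 1 is the highest tumor for Myc, Max and Mxd4 and the lowest for Mxi1, and the groups overlap in all 8 panels.

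The other MYC proteins were represented by few transcripts. Mycn, best known from neuroblastoma and embryonic progenitors, had 2.76, 1.37, 2.37 and 6.79 CPM in the untreated and 1.77, 1.25, 1.92 and 1.39 CPM in the Minnelide tumors, with 6 to 95 UMIs per tumor. Untreated 4 was the highest and the remaining 7 tumors were within 1.25 to 2.76 CPM. The log2 fold change of -0.93 ± 0.52 (SE, adjusted p = 0.609, edgeR) came to -0.27 without untreated 4. Mycl, the member first found amplified in small cell lung cancer, had 5.43, 1.22, 2.17 and 2.09 CPM in the untreated and 2.57, 6.06, 0.578 and 2.72 CPM in the Minnelide tumors. Its high values fell in 1 tumor of each group, and its log2 fold change of 0.20 ± 0.68 (SE, adjusted p = 0.943, edgeR) turned to -0.34 without Minnelide 2 and to -0.01 without untreated 2.

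Max, the shared dimer partner, was measured at 92.7, 54.5, 50.9 and 56.9 CPM in the untreated and at 50.2, 50.2, 53.7 and 39.002 CPM in the Minnelide tumors. Untreated 1 stood alone, and the other 7 tumors ranged from 39.002 to 56.9 CPM. The log2 fold change was -0.27 ± 0.17 (SE, adjusted p = 0.640, edgeR), and -0.12 without untreated 1.

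Among the repressing partners, 3 had negative and 1 a positive fold change. Mxd1, which is induced as many cell types differentiate, had 18.7, 14.4, 13.1 and 22.8 CPM in untreated and 11.2, 13.8, 12.8 and 12.0 CPM in Minnelide tumors. The lowest untreated tumor was below the highest Minnelide tumor by less than 1 CPM, and the log2 fold change of -0.36 ± 0.22 (SE, adjusted p = 0.628, edgeR) came to -0.15 without untreated 4. Mnt, the broadly expressed member that limits MYC in proliferating cells, had 17.5, 23.4, 22.0 and 29.1 CPM in untreated and 12.9, 20.7, 18.0 and 16.6 CPM in Minnelide tumors. Untreated 1 was the lowest untreated tumor here, and the log2 fold change of -0.35 ± 0.25 (SE, adjusted p = 0.678, edgeR) was -0.51 without it (edgeR, unadjusted p = 0.0359, adjusted p = 0.655) and -0.17 without untreated 4. In the fit without untreated 1, 586 of 13006 genes were lower at an unadjusted p under 0.05. Mxd4 had 125, 71.5, 51.4 and 55.0 CPM in untreated and 55.9, 41.2, 79.9 and 45.9 CPM in Minnelide tumors. Its log2 fold change of -0.29 ± 0.28 (SE, adjusted p = 0.764, edgeR) rested on untreated 1 and was -0.04 without that tumor.

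Mxi1, also called Mxd2, was the repressing partner with higher values after Minnelide. Tumor-like nuclei had 108, 144, 150 and 142 CPM in untreated and 139, 158, 164 and 160 CPM in Minnelide tumors. Minnelide 2, Minnelide 3 and Minnelide 4 were above all untreated tumors, whereas Minnelide 1 was below 3 of them. The log2 fold change was 0.28 ± 0.18 (SE, adjusted p = 0.645, edgeR), and 0.14 without untreated 1.

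Of the 8 members, 0 were called in tumor-like nuclei at an adjusted p under 0.05 by edgeR, 0 had an unadjusted p under 0.05, and DESeq2 called 0. Over all 12946 genes tested edgeR called 0%, and an unadjusted p under 0.05 was reached with lower values after Minnelide by 6.13% and with higher values by 2.07% of genes. The groups did not separate for any of the 8, compared with 4.6% of genes that were lower and 1.12% that were higher in each Minnelide tumor than in any untreated tumor. Fold changes were negative for 6 of the 8 with a median log2 value of -0.32, whereas 50.9% of all genes were negative and their median was -0.0074. The 4 against 4 comparison thus gave no member a difference beyond the spread between tumors. The tumors are counted as separate samples because the series gives 4 per group, and p-values measure the spread between them.

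Untreated 1, on which several of these values rest, also differed in the markers of other cell types. The 11 endothelial markers, all detected in each tumor, made up 0.373% of its tumor-like UMIs, against 0.0553% to 0.0651% in the other untreated and 0.039997% to 0.0897% in the Minnelide tumors. The 11 macrophage markers made up 0.0931%, against 0.0155% to 0.0327% in the other untreated and 0.0111% to 0.0192% in the Minnelide tumors. The 11 myocyte markers made up 0.653%, against 0.166% to 0.336% and 0.0415% to 0.573%. Markers of B cells, of T and NK cells and of adipocytes made up 0.0142%, 0.0125% and 0.0417%. The highest values in any other tumor were 0.00067%, 0.0017% and 0.0033%. Schwann and neutrophil markers were also highest in untreated 1. Its tumor markers (1.33%), pericyte and dendritic markers were the lowest, and fibroblast, satellite and osteoclast markers lay within the range of the others. The paper on these tumors reports tumor cells with endothelial features and reduced CIC::DUX4 activity in a single profiled tumor. Whether that tumor is untreated 1 was not determined. Whether the markers came from tumor cells or from RNA of other cells was not tested. Untreated 1 was also the deepest, with a median of 5883.5 UMIs per tumor-like nucleus against 1867 to 4129 in the others. The part of these markers and of depth in the Myc, Max and Mxd4 values was not tested. When a cluster was left unnamed because a second class reached 50% of the leading one in place of 75%, a limit added after the data were seen, the log2 fold change was -0.31 for Myc, -0.05 for Max and -0.16 for Mxd4, while Mnt came to -0.57 (unadjusted p = 0.0246, adjusted p = 0.875). Under this limit untreated 1 keeps 28 of its 3018 tumor-like nuclei (167626 of 34438078 UMIs). In the same edgeR fit 450 of 12675 genes were lower at an unadjusted p under 0.05.

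Counted per nucleus, Myc transcripts were rare. With each tumor-like nucleus thinned to 1000 UMIs, at least 1 Myc UMI was present in 1.99%, 2.09%, 1.15% and 0.939% of nuclei of untreated 1 to 4 and in 1.38%, 0.618%, 1.17% and 1.36% of those of Minnelide 1 to 4. Untreated 1 and 2 were again above the Minnelide tumors and untreated 3 and 4 within their range. The means were 1.54% ± 0.583 and 1.13% ± 0.354 (SD, n = 4 each), a difference of -0.411 percentage points (two-sided exact permutation test, p = 0.286, where 0.0286 is the smallest p that 4 against 4 allows). Thinning left out 0 to 295 shallower nuclei per tumor. Without thinning the shares were 8.57% ± 8.28 and 4.83% ± 2.08 (exact permutation p = 0.629), and ran with depth. No class can be taken to lack Myc. At 1000 UMIs, myocyte-like nuclei, with a median depth of 2925 to 4263.5 UMIs, had 1.14% ± 0.827 in untreated and 1.89% ± 0.842 in Minnelide tumors, the latter with 2 of 67 nuclei in Minnelide 3 and 1 of 49 in Minnelide 4. The median depth of the tumor-like nuclei was 1995 to 5888 UMIs. No background share was available, and the shares of the classes were not tested against each other.

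Transcripts of the activating arm were a small and variable part of the network. Of all UMIs from Myc, Mycn, Mycl, Mxd1, Mxd4, Mxi1 and Mnt in tumor-like nuclei, the 3 MYC genes made up 11.4%, 8.02%, 6.45% and 7.44% in untreated and 6.37%, 6.06%, 5.32% and 6.203% in Minnelide tumors. The groups did not overlap, although untreated 3 and Minnelide 1 were 6.45% and 6.37%. These shares rest on 165 UMIs of the MYC genes in untreated 3 and 749 in Minnelide 1, and their counting error was not computed. The share is a description of summed UMIs, uncorrected for gene length, and carries no test. How often shares of other gene sets separate the groups was not determined, so this separation has no background rate. In fibroblast-like nuclei the same share was 5.56% to 10.2% in untreated and 6.52% to 8.74% in Minnelide tumors, and in endothelial-like nuclei 5.07% to 6.52% and 4.84% to 6.56%, so neither separated. In myocyte-like nuclei the means were 8.79% and 9.90% and in pericyte-like nuclei 7.28% and 10.5%, higher in Minnelide tumors. In macrophage-like nuclei the share was 2.17% to 8% in untreated and 2.70% to 9.09% in Minnelide tumors. Over all retained nuclei the share was 6.16% to 11.6% in untreated and 5.93% to 8.09% in Minnelide tumors and overlapped. The groups overlapped in every other set compared here. In tumor-like nuclei the gap lay between untreated 3 (165 MYC and 2393 repressor UMIs) and Minnelide 1 (749 and 11013). It is not read as particular to this class.

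**Figure D2:**
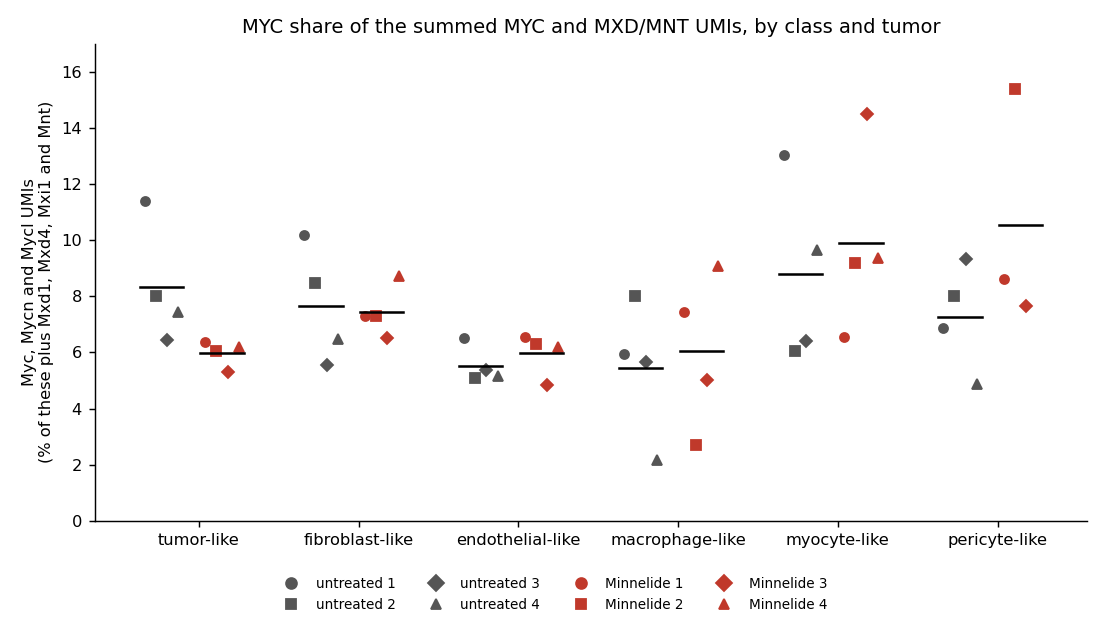
Share of the UMIs of 7 genes (Myc, Mycn, Mycl, Mxd1, Mxd4, Mxi1 and Mnt) that came from Myc, Mycn and Mycl, in percent, by nucleus class; each symbol is a tumor and the lines are group means. In tumor-like nuclei the Minnelide tumors lie between 5.32% and 6.37% and the untreated between 6.45% and 11.4%, and in the 5 other classes shown the groups overlap. The separation in tumor-like nuclei carries no test and no counting error.

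The same members were then compared in the sum over all retained nuclei, which mixes the classes in the proportions each tumor gave. Myc had 18.9 ± 6.03 CPM in untreated and 12.5 ± 1.37 CPM in Minnelide tumors (SD, n = 4 each), which gave a log2 fold change of -0.44 ± 0.22 (SE, adjusted p = 0.540, edgeR). For Mxd1 the groups separated, with 18.4, 16.9, 14.7 and 19.9 CPM in untreated and 11.3, 13.7, 12.6 and 12.5 CPM in Minnelide tumors. Such separation was found toward lower values in 6.88% and toward higher values in 0.68% of the 13816 genes tested. The log2 fold change of Mxd1 was -0.33 ± 0.16 (SE, adjusted p = 0.536, edgeR). Mxi1 was measured at 124 ± 15.4 and 141 ± 19.0 CPM (SD, n = 4 each; log2 fold change 0.32 ± 0.18, SE, adjusted p = 0.566, edgeR). By edgeR 0 of 8 members were called, 0 had an unadjusted p under 0.05 and 0% of all genes were called, and DESeq2 called 0 of the 8. An unadjusted p under 0.05 was reached with lower values by 7.53% and with higher values by 2.48% of all genes. Fold changes were negative for 6 of the 8, with a median of -0.29, and for 49.4% of all genes.

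**Figure D3:**
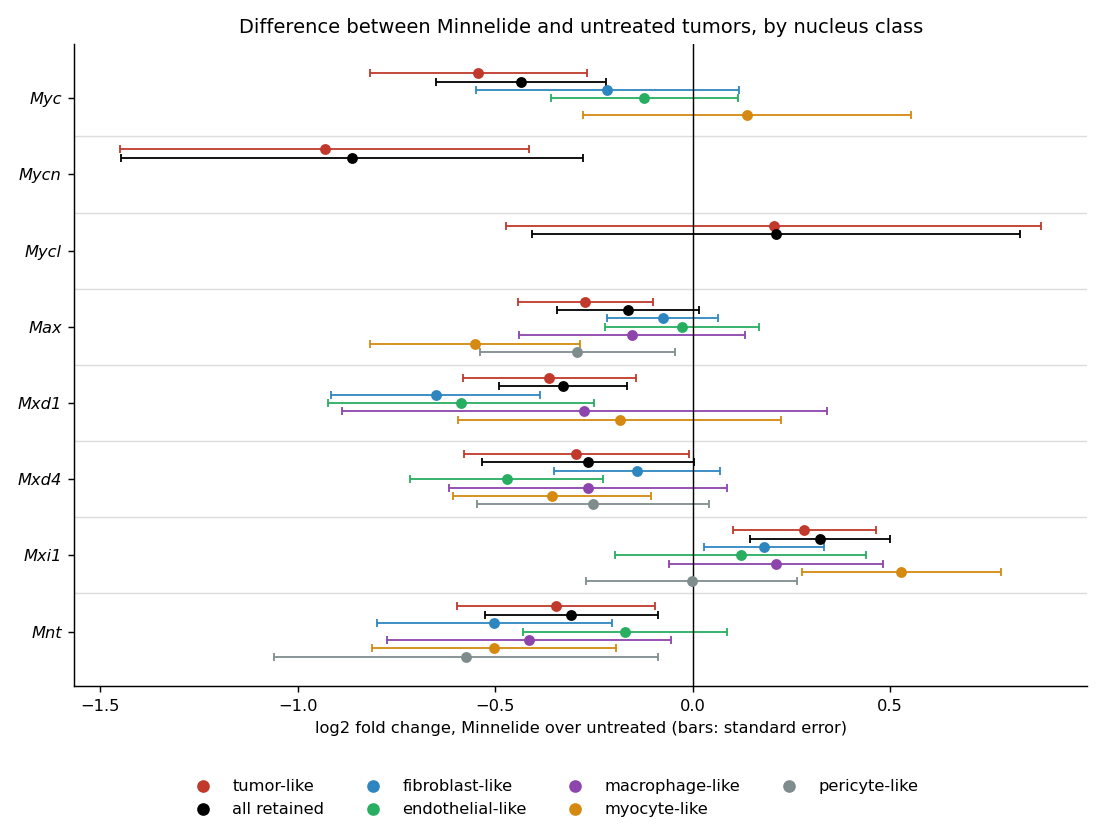
Log2 fold change of each member, Minnelide over untreated, with its standard error, in each nucleus class and in the sum of all retained nuclei; a class is missing where the gene did not pass the filter on low counts. Most points lie below 0 for Max, Mxd1, Mxd4 and Mnt and above 0 for Mxi1, and none was called at an adjusted p under 0.05.

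In fibroblast-like nuclei 6 of the 8 members passed the filter on low counts, and Mycn and Mycl did not. Mxd1 had 23.0, 25.2, 17.5 and 14.4 CPM in untreated and 9.10, 16.6, 10.5 and 13.7 CPM in Minnelide tumors. Untreated 4 lay below Minnelide 2, so the groups overlapped. By edgeR the log2 fold change was -0.65 ± 0.27 (SE, adjusted p = 0.942), and it was the 1 member in any class with an unadjusted p under 0.05 (edgeR, 0.0371). Of the 11508 genes tested, such a p was reached with lower values by 3.02% and with higher values by 1.85%, 52.3% had negative fold changes, and 2.35% were lower and 1.15% higher in each Minnelide than in any untreated tumor. Myc was 19.7 ± 7.48 CPM in untreated and 16.9 ± 7.04 CPM in Minnelide tumors (SD, n = 4 each), and its log2 fold change was -0.22 ± 0.33 (SE, adjusted p = 0.973, edgeR). Fold changes of the 6 were negative for 5 and positive for Mxi1. By edgeR 0 members and 0% of genes were called, and DESeq2 called 0 members.

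In endothelial-like nuclei 6 members passed the filter. Mxd4 had 178, 118, 88.0 and 87.8 CPM in untreated and 69.1, 64.6, 105 and 84.0 CPM in Minnelide tumors. Minnelide 3 was above 2 of the untreated tumors, and the log2 fold change was -0.47 ± 0.24 (SE, adjusted p = 0.509, edgeR). Mxd1 had 22.8 ± 9.74 and 14.6 ± 3.31 CPM (SD, n = 4 each; log2 fold change -0.59 ± 0.34, SE, adjusted p = 0.540, edgeR). The log2 fold change of Myc was -0.12 ± 0.24 (SE, adjusted p = 0.887, edgeR). Fold changes were negative for 5 of the 6, against 51.1% of the 9590 genes tested. The groups separated for 0 of the 6 members, against 3.56% of genes with lower and 3.11% with higher values. By edgeR 0 members and 0% of genes were called, and DESeq2 called 0 members. An unadjusted p under 0.05 was reached by 0 members, by 5.72% of genes with lower and by 4.89% with higher values.

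Among the named classes, only muscle nuclei had a member whose values separated the groups. In myocyte-like nuclei Mxi1 had 43.9, 65.1, 66.2 and 76.9 CPM in untreated and 96.6, 100.03, 96.1 and 92.0 CPM in Minnelide tumors. Each Minnelide tumor was above each untreated tumor, as for 5.36% of the 10308 genes tested in this direction, and the log2 fold change was 0.53 ± 0.25 (SE, unadjusted p = 0.0611, adjusted p = 0.455, edgeR). It was 0.35 without untreated 1 and 0.27 without the nucleus filter. Max had 124, 76.0, 58.6 and 74.3 CPM in untreated and 57.4, 73.0, 48.1 and 51.7 CPM in Minnelide tumors, and its log2 fold change was -0.55 ± 0.27 (SE, adjusted p = 0.459, edgeR). These sums came from 172 to 1265 nuclei in untreated and 55 to 3382 in Minnelide tumors. The smallest held 173990 UMIs in Minnelide 4 and 332835 in Minnelide 3, so their values rest on few counts of each member. A cluster of 1193 myocyte-like nuclei drew 99.7% from untreated 1, and another of 4946 drew 67.2% from Minnelide 2, so the 2 groups rest on different clusters in part. Myc had a log2 fold change of 0.14 ± 0.42 (SE, adjusted p = 0.944, edgeR), from 8.28 to 18.3 CPM in untreated and 8.84 to 24.0 CPM in Minnelide tumors. By edgeR 0 members and 0% of genes were called, and DESeq2 called 0 of the 3 for which it gave an adjusted p. An unadjusted p under 0.05 was reached by 0 members, by 5.36% of genes with lower and by 6.15% with higher values. Fold changes were negative for 4 of the 6, against 53.4% of genes, and 2.3% of genes separated toward lower values.

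Macrophage-like and pericyte-like nuclei were few. In macrophage-like nuclei 5 members passed the filter, and Myc was not among them, with 16.1, 21.1, 12.1 and 0 CPM in the untreated tumors. The 0 of untreated 4 comes from 71 nuclei, whose 119364 UMIs allow up to 25.1 CPM by 3 counts. The 5 log2 fold changes ran from -0.41 ± 0.36 (SE) for Mnt to 0.21 ± 0.27 for Mxi1, and 4 of the 5 were negative, against 50.4% of the 8633 genes tested. An unadjusted p under 0.05 was reached by 3.68% of genes with lower and 2.73% with higher values, and 2.47% and 1.39% separated in these directions. In pericyte-like nuclei, with 4 untreated and 3 Minnelide tumors since Minnelide 4 had 14 nuclei and sums needed 20, 4 members passed and their log2 fold changes ran from -0.57 ± 0.49 (SE) for Mnt to -0.0028 ± 0.27 for Mxi1, all 4 negative, against 51.8% of the 7510 genes tested. An unadjusted p under 0.05 was reached by 2.73% of genes with lower and 1.58% with higher values, and 2.96% and 2.62% separated in these directions. The groups separated for 0 of these members. In both classes edgeR called 0 members and 0% of genes, 0 members had an unadjusted p under 0.05, and DESeq2 called 0 members.

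Whether Minnelide tumors differed from untreated tumors by more in tumor-like than in fibroblast-like nuclei was tested for each member with an interaction term, with the tumor as a block. The differences of log2 fold changes, tumor-like minus fibroblast-like, were -0.36 ± 0.25 (SE) for Myc (adjusted p = 0.961), -1.12 ± 0.61 for Mycl (adjusted p = 0.961) and 0.33 ± 0.32 for Mxd1 (adjusted p = 0.967), by edgeR. The other 5 lay between -0.49 for Mycn and 0.11 for Mnt. By edgeR 0 of 8 members and 0% of 12728 genes were called, and DESeq2 called 0 members. Of the members 0 had an unadjusted p under 0.05, against 1.12% of genes with positive and 3.45% with negative differences.

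Between classes the members formed different orders. Each class was set against the tumor-like nuclei of the same tumors as a description, without a test, because clusters define the classes. Myc was higher in fibroblast-like than in tumor-like nuclei in 8 of 8 tumors, with class medians of 14.7 and 11.6 CPM. Its highest class medians were 19.6 CPM in osteoclast-like (12.4 to 34.7 CPM) and 17.9 CPM in pericyte-like nuclei (12.5 to 23.9 CPM), and its lowest were 11.6 CPM in tumor-like (7.74 to 26.4 CPM) and 11.3 CPM in macrophage-like nuclei (0 to 21.1 CPM). The 4 lowest classes, which also include endothelial-like and myocyte-like nuclei, lay within 11.3 to 12.4 CPM and did not differ beyond their spread. Mycn had its highest class median in tumor-like nuclei, at 1.84 CPM against 0 to 1.56 CPM in the other classes, and was lower in endothelial-like nuclei in 7 of 8 tumors, although its ranges overlapped. Its UMIs over all tumors numbered 344 in tumor-like nuclei and from 2 in pericyte-like to 33 in fibroblast-like nuclei in the other classes. The order of Mycn thus rests on few counts and does not rank the classes. Mycl stood at class medians of 0.964 to 3.74 CPM with no class apart.

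Max had class medians from 52.3 CPM in tumor-like to 67.7 CPM in pericyte-like nuclei. It was higher in macrophage-like than in tumor-like nuclei in 8 of 8 tumors and higher in fibroblast-like and myocyte-like nuclei in 7 of 8.

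The repressing partners differed more. Mxd4 was highest in vascular and stromal classes, with medians of 95.8 CPM in pericyte-like, 87.9 CPM in endothelial-like and 87.0 CPM in fibroblast-like nuclei, against 55.5 CPM in tumor-like and 43.0 CPM in osteoclast-like nuclei. It exceeded the tumor-like value in 8 of 8 tumors in endothelial-like, 7 of 7 in pericyte-like and 7 of 8 in fibroblast-like nuclei. Mxd1 had its highest median in macrophage-like nuclei, at 24.4 CPM (9.59 to 83.8 CPM), above tumor-like nuclei in 7 of 8 tumors, and Mnt exceeded the tumor-like value in macrophage-like nuclei in 8 of 8. Mxi1 was lowest in myocyte-like nuclei, with a median of 84.4 CPM (43.9 to 100.03 CPM) against 147 CPM (108 to 164 CPM) in tumor-like nuclei, and was lower there in 8 of 8 tumors. Its highest medians, 154 CPM in macrophage-like and 147 CPM in tumor-like nuclei, did not differ beyond their spread.

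**Figure D4:**
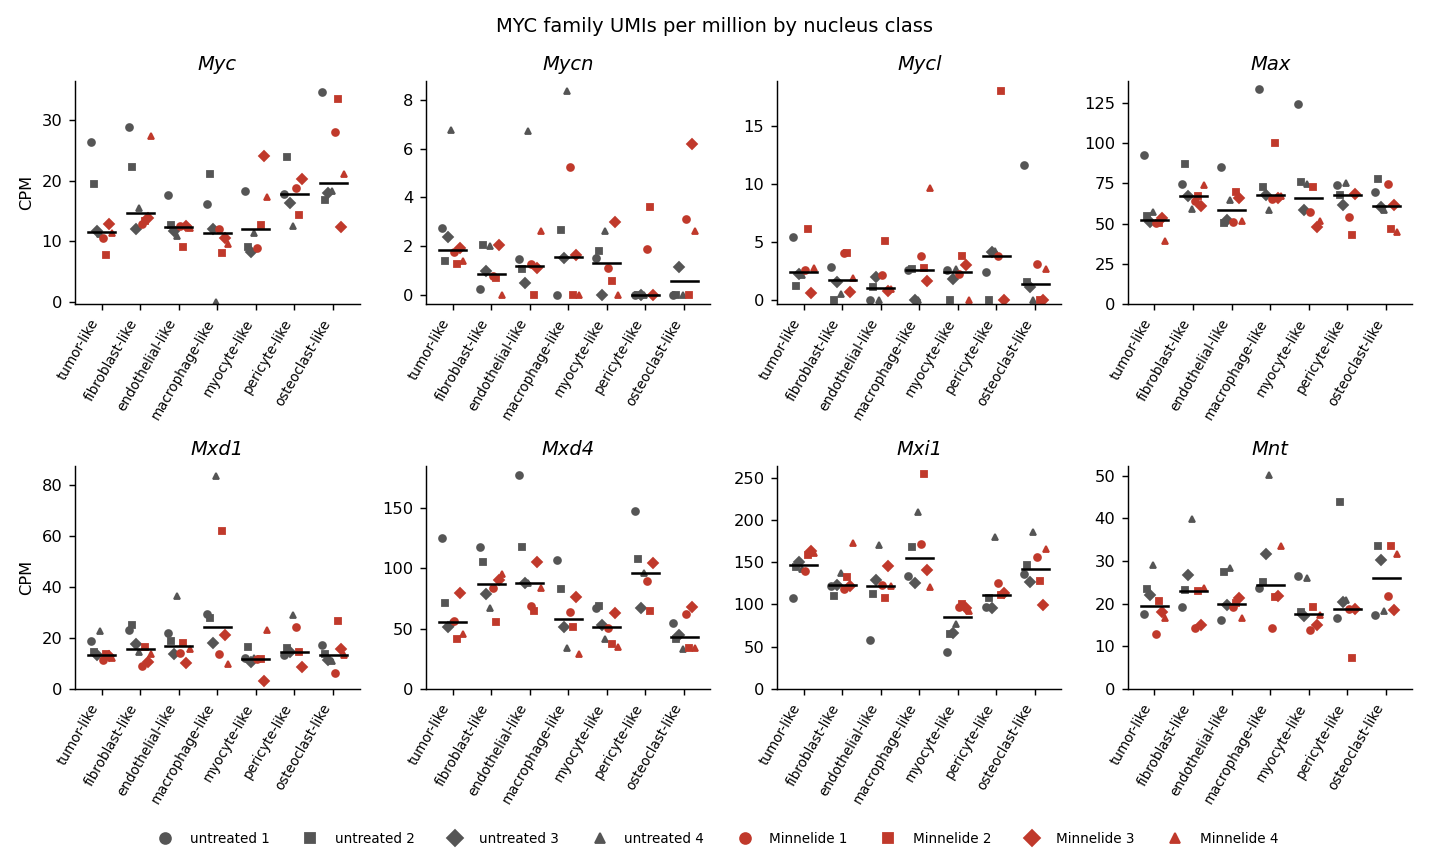
CPM of each member in 7 nucleus classes, 1 symbol per tumor (untreated gray, Minnelide red), with the class median as a line; pericyte-like nuclei have 7 tumors and each panel has its own scale. Mxi1 is lowest in myocyte-like nuclei and Mxd4 highest in pericyte-like, endothelial-like and fibroblast-like nuclei, while Mycn and Mycl have class medians of at most 3.74 CPM.

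Depth of the nuclei moved with some members. When the tumor-like nuclei of each tumor were split at their median UMI count, Mxd4 was higher in the shallower nuclei in 8 of 8 tumors (median over tumors 66.4 against 52.7 CPM) and Myc in 7 of 8 (14.4 against 10.9 CPM), the exception being Minnelide 2. Mxi1 was higher in the shallower nuclei in 4 of 8 and Mxd1 in 2 of 8. In the nuclei left unnamed, Myc had 45.8, 21.9, 25.9 and 29.96 CPM in untreated 1 to 4 and 19.8 and 34.7 CPM in Minnelide 1 and 3, the tumors with at least 20 such nuclei. These were above the tumor-like value of the same tumor in 6 of 6, as was Mycn (2.53 to 10.4 CPM). Mxi1 was below it in 5 of 6. The unnamed nuclei carry markers of several classes, and the part of RNA from other cells in their Myc level was not tested. Of the 10590 unnamed nuclei 9161 belonged to untreated tumors. At the other end, a tumor-like cluster of 964 nuclei, 99.8% of Minnelide 1, had a median of 15520 UMIs, and doublets beyond those Scrublet marked were not sought in it.

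**Figure D5:**
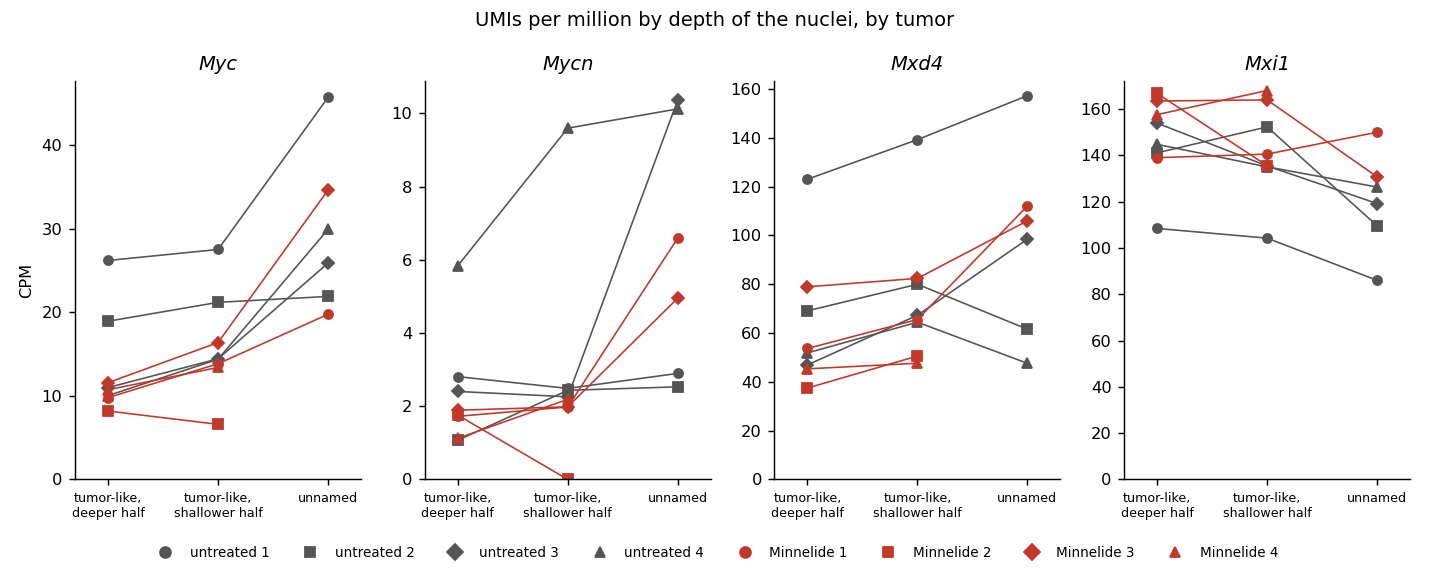
CPM of Myc, Mycn, Mxd4 and Mxi1 in the deeper and the shallower tumor-like nuclei, split at each tumor's median UMI count, and in unnamed nuclei of the 6 tumors with at least 20 of them; a line joins the values of a tumor (untreated gray, Minnelide red). Myc and Mycn are higher in unnamed than in tumor-like nuclei in 6 of 6 tumors, and Mxi1 is lower in 5 of 6.

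Of the wider network, 5 further factors of the MAX and MLX families were tested in tumor-like nuclei, of which 2 had positive and 3 negative fold changes and 0 were called. Mxd3, a repressing MXD protein known from proliferating progenitors, had 3.04 ± 1.33 CPM in untreated and 4.81 ± 1.23 CPM in Minnelide tumors (SD, n = 4 each; log2 fold change 0.76 ± 0.40, SE, adjusted p = 0.595, edgeR). Mlxip, a glucose-sensing partner of MLX, had 50.9 ± 34.6 and 30.9 ± 3.69 CPM, with 103 CPM in its highest untreated tumor (log2 fold change -0.56 ± 0.33, SE, adjusted p = 0.625, edgeR). Mga, a MAX partner of noncanonical Polycomb complexes, had 288 ± 55.4 and 309 ± 19.9 CPM.

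Among 20 cofactors and regulators of MYC protein, fold changes in tumor-like nuclei were positive for 17 and negative for 3, with a median log2 value of 0.14, and edgeR called 0 at an adjusted p under 0.05 and 0 had an unadjusted p under 0.05. Hdac2, a histone deacetylase of the SIN3 complex, had 74.6 ± 5.03 CPM in untreated and 80.6 ± 9.18 CPM in Minnelide tumors (SD, n = 4 each), and its log2 fold change was 0.21 ± 0.14 (SE, adjusted p = 0.649, edgeR). Aurka, a mitotic kinase that stabilizes MYCN, had 12.3 ± 3.90 and 16.2 ± 3.65 CPM, and its log2 fold change was 0.49 ± 0.32 (SE, adjusted p = 0.658, edgeR).

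Most genes that MYC is known to activate had fold changes of the opposite sign to Myc in tumor-like nuclei. Of 59 such genes tested in tumor-like nuclei, 40 had positive and 19 negative fold changes, with a median log2 value of 0.11 against -0.0074 for all genes, of which 50.9% were negative. An unadjusted p under 0.05 was reached by 4 with higher and 0 with lower values after Minnelide, against 2.07% and 6.13% of all genes, and edgeR called 0. Slc19a1, the reduced folate carrier, had 4.397 ± 1.06 CPM in untreated and 7.65 ± 1.05 CPM in Minnelide tumors (SD, n = 4 each), and its log2 fold change was 0.90 ± 0.23 (SE, unadjusted p = 0.00451, adjusted p = 0.589, edgeR). Its untreated tumors ranged from 3.31 to 5.62 CPM and its Minnelide tumors from 6.54 to 8.99 CPM, without overlap. Cdk4, the G1 kinase that pairs with D-type cyclins, ranged from 21.2 to 43.6 CPM in untreated and from 45.9 to 55.9 CPM in Minnelide tumors, also without overlap (log2 fold change 0.66 ± 0.22, SE, unadjusted p = 0.0159, adjusted p = 0.589, edgeR). Slc29a2, an equilibrative nucleoside transporter, ranged from 1.78 to 2.73 CPM in untreated and from 2.89 to 4.25 CPM in Minnelide tumors (log2 fold change 0.72 ± 0.29, SE, unadjusted p = 0.0379, adjusted p = 0.589, edgeR). These 3 were named for having the smallest p of the list, and 1.12% of all genes separated in this direction.

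The counts of these lists differed between classes, which was not tested. In endothelial-like nuclei 35 of 45 target genes and 18 of 19 cofactors had positive fold changes, with medians of 0.26 and 0.19 against -0.01 for all genes, and 8 target genes had an unadjusted p under 0.05, all higher, against 4.89% of all genes with higher and 5.72% with lower values. In fibroblast-like nuclei 35 of 56 target genes and 15 of 20 cofactors were positive, and 4 target genes had an unadjusted p under 0.05, all higher, against 1.85% of all genes with higher and 3.02% with lower values. Myocyte-like nuclei went the other way for the targets, with 23 positive and 31 negative and a median of -0.09, 2 higher and 1 lower at an unadjusted p under 0.05 against 6.15% and 5.36% of all genes, and gave 10 positive and 10 negative among the cofactors. The untreated and Minnelide sums of every class come from the same 8 tumors, so the classes are not independent of one another.

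The genes most like Myc over 55 sums of nuclei (7 classes in 8 tumors, less 1 with too few nuclei), by Pearson's r of log2(CPM + 1) among 7593 genes with a mean of at least 20 CPM, were Wdr13 (r = 0.791), Spns1 (0.781), Tars (0.775), Tex264 (0.7501) and Actr8 (0.742). Over the 29 sums with at least 1e6 UMIs their r was 0.348 to 0.626, so the likeness came in part from shallow sums. For Mxi1 they were Tcf20 (0.785), Renbp (0.758), Kmt5c (0.746), Vps8 (0.738) and Ago2 (0.732), with r of 0.752 to 0.883 over the 29 deeper sums. These are descriptions, since sums of a tumor share its library and depth. Between the members, Myc had r = 0.658 with Mxd4, 0.551 with Max and -0.07 with Mxi1 over the 29 deeper sums, and Mxi1 had r = -0.501 with Max. Over all 55 sums these were 0.303, 0.130, -0.172 and -0.226, so they depended on the sums chosen.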

How the data were processed

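Single-nucleus libraries were made with a Chromium 3′ kit, multiplexed on the chip, per the labels. The submitters' processing notes name bcl2fastq 2.20, Cell Ranger 7.0.1 and mm39, whereas the matrix headers name Cell Ranger 9.0.1. The authors deposited raw UMI counts per gene and nucleus. Of the 19059 genes 18953 are protein coding, and which part of a transcript gave the UMIs was not determined, so levels were compared within a gene. Each matrix was taken as 1 tumor, numbered by file order.

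Nuclei with fewer than 200 genes or a posterior of at least 0.75 of being compromised (a mixture model of mitochondrial share on genes detected) and Scrublet doublets (0.8% per 1000 nuclei) were removed. The rest were clustered in scanpy 1.11.5 (2000 variable genes, 30 components, 40 neighbors, Leiden resolution 1) without the members, listed genes or markers. A cluster took the name of its leading marker list unless another list led its top genes or reached 75% of the first, a limit set after seeing the clusters and before any test between groups. UMI counts were summed per class and tumor with at least 20 nuclei and tested with edgeR 4.0.16 (TMM, filterByExpr, quasi-likelihood, Benjamini-Hochberg adjustment over all genes), with DESeq2 1.42.0 as an alternative. Scripts were tested on simulated data. Shares of nuclei were compared by an exact permutation test over tumors (scipy 1.17.1). Intervals at the 95% level and the limit of 3 counts for a zero cover counting error alone.

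The members and lists were chosen with earlier results of these data known. All 8 members are named, and of each wider list the 3 genes with the smallest p in tumor-like nuclei, except 1 cofactor that is not reported here. Of 62 listed MYC targets 59 were tested, Phb under its older symbol, and Mrto4, Pes1 and Rrp12 were not analysed here. Alternatives covered normalization, the low-count filter, the test, nucleus and doublet filters, cluster naming and resolution, thinning, a block by shared barcodes, and leaving out each tumor.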

Additional observations from a re-analysis of the deposited data

Results flagged for a closer look

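In 4 of 34 groups of 4 tumors examined (each member in tumor-like and in all retained nuclei, and the share of nuclei with a Myc UMI), 1 tumor stood apart by Dixon's test at the 95% level, and chance marks about 1 group in 20. Max in untreated 1 was 92.7 CPM in tumor-like nuclei, against 50.9 to 56.9 CPM in the other untreated tumors, and 92.9 CPM in all retained nuclei, against 58.3 to 61.9 CPM. Mxi1 in untreated 1 was 101 CPM in all retained nuclei, against 130 to 133 CPM. Mycn in untreated 4 was 6.50 CPM in all retained nuclei, against 1.49 to 2.26 CPM, and 60% of the nuclei of that tumor were unnamed.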

How the results depend on the processing

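Each of the 51 member results was read under each alternative setting, which gave 801 values, since a single fit covers all members of a class. No member was called at an adjusted p under 0.05 in any of the 801, and the smallest adjusted p was 0.30 (edgeR or DESeq2). Of the 51 results, 35 kept their sign under all settings. DESeq2 called 52 genes of any kind in tumor-like, 172 in all retained, 13 in fibroblast-like, 47 in endothelial-like and 40 in myocyte-like nuclei and 7 for the interaction, where edgeR called 0 in each, with 1062, 1384, 561, 1018, 1186 and 582 at an unadjusted p under 0.05. The sign of a log2 fold change turned in 34 of the 801 values, and the cause was not tested. Without the filter on low counts it was 0.0031 for Max in endothelial-like and 0.0085 for Mxi1 in pericyte-like nuclei. Without doublet removal it was 0.018 for Max in endothelial-like, -0.080 for Myc in myocyte-like and 0.0026 for Mxi1 in pericyte-like nuclei. Without the nucleus filter it was -0.028 for Mxi1 in endothelial-like and 0.020 for Mxd1 in myocyte-like nuclei. It was 0.00027 for Max in endothelial-like nuclei at Leiden resolution 0.5, 0.0046 for Mxi1 in pericyte-like nuclei by DESeq2, and -0.12 for Myc in myocyte-like nuclei without a limit on a second class, an alternative added after the data were seen. Leaving out 1 tumor at a time gave -0.34 to 0.67 for Mycl in tumor-like and -0.17 to 0.73 in all retained nuclei. In fibroblast-like nuclei it gave -0.13 to 0.028 for Max and -0.23 to 0.016 for Mxd4. In endothelial-like nuclei it gave -0.19 to 0.00010 for Myc, -0.11 to 0.099 for Max and -0.13 to 0.36 for Mxi1. In macrophage-like nuclei it gave -0.34 to 0.16 for Max, -0.97 to 0.094 for Mxd1 and -0.042 to 0.34 for Mxi1. In myocyte-like nuclei it gave -0.11 to 0.41 for Myc and -0.29 to 0.020 for Mxd1. In pericyte-like nuclei it gave -0.42 to 0.0010 for Mxd4 and -0.093 to 0.24 for Mxi1. For the interaction it gave -1.13 to 0.092 for Mycn and -0.025 to 0.17 for Mxi1. The difference in the share of nuclei with a Myc UMI was -0.612 to -0.229 percentage points. The stricter naming rule, under which any raised second class leaves a cluster unnamed, could not be run since no untreated tumor kept 20 tumor-like nuclei. The labels give no replicate numbers, and tumors were numbered by file order. The 4 pairs of tumors that share barcodes did not deviate together from their group means in tumor-like nuclei (r of -0.24 to 0.03 over 6960 genes, against -0.31 to 0.40 in the 12 other pairs across groups). With these pairs as a replicate block, added after the data were seen, edgeR called 0 members and 0 genes in each class, 492 genes had an unadjusted p under 0.05 in tumor-like nuclei, and the log2 fold change turned to -0.026 for Mycl in tumor-like and to 0.24 for Mxi1 in pericyte-like nuclei. Depth limits Mycn and Mycl most, at 6 to 95 and 12 to 187 UMIs per tumor in tumor-like nuclei.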
